A study of Mus musculus with 18 samples.

Results

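Gene expression in the hippocampus was set against that in the cortex in 10 libraries of mouse brain, 5 from each tissue, out of 18 libraries in the series. The hippocampus libraries were 1 of vehicle controls and 4 of mice exposed to urban particulate matter (UPM) for 8, 12, 16 and 20 weeks, and the cortex libraries were 1 of vehicle controls and 4 of the same 4 exposures. The mice were male C57BL/6, and at the first dose they were 7 weeks old. They received the particles, the certified city dust SRM 1648a suspended in phosphate-buffered saline (PBS), or PBS alone through the nose, and the long exposures were dosed 2 times per week. The time at which the control mice were taken is not stated. RNA of all mice of a group was pooled, so a library is a pool and not a mouse. The files of these 10 libraries name their columns in one way, and those of the other 8 libraries (3, 5 and 7 days and 3 weeks of UPM) in another. The 5 exposures served as replicates of each tissue, with exposure as a factor in the fit. The p-values therefore measure the spread between these 5 pairs of libraries, which differ in exposure and in the age of the mice, and not that between animals.

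The hippocampus is an older, simpler kind of cortex folded under the neocortex. Granule cells of the dentate gyrus send mossy fibres to the pyramidal cells of CA3, these project to CA1, and CA2 lies between them. The neocortex stacks its excitatory neurons in layers, with layers 2 and 3 linking cortical areas, layer 4 receiving thalamic input, layer 5 projecting to brainstem and spinal cord and layer 6 projecting back to the thalamus. Both tissues share the same classes of interneurons, glia and vessels, and both border on other structures. The choroid plexus and the ependyma of the lateral ventricle and the thalamus lie beside the hippocampus, and the striatum lies under the cortex.

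Values are 3' read counts, given as CPM, counts scaled with TMM to a common library size, in the order control, 8, 12, 16 and 20 weeks. Total counts were 7.51 to 8.08 M in hippocampus and 7.31 to 8.65 M in cortex, so that 3 counts equal 0.349 to 0.44 TMM-scaled CPM in a library. A principal component with 41.9% of the variance separated the tissues, with scores of -35 to -17.4 in hippocampus and 20.8 to 32.4 in cortex. The labels held in all 10 libraries by the genes that define the tissues, with exceptions in degree. In hippocampus the library of 16 weeks lay nearest to cortex on that component. It carried Mef2c, a transcription factor of cortical neurons, at 1564 CPM and that of 20 weeks at 1365 CPM, against 486 to 609 CPM in the other hippocampus libraries and 2876 to 3215 CPM in cortex. Genes of the choroid plexus, the epithelium that makes cerebrospinal fluid, were low in the control hippocampus and raised in the control cortex, the opposite of the other 4 pairs. Genes of the striatum were low in the cortex library of 20 weeks. Tissue taken along at dissection and a change in the tissue itself cannot be told apart in these pools, and in bulk RNA fewer cells of a type and less RNA per cell cannot be told apart either.

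Hippocampus and cortex differed in many genes. Of 13625 genes tested, edgeR's quasi-likelihood test called 2797 at an adjusted p under 0.05 (20.5%), 1327 of them higher in hippocampus (9.74%) and 1470 lower (10.8%). The smallest adjusted p was 8.88e-08. The median size of the difference over the called genes was 0.56 on the log2 scale, and 367 were higher and 232 were lower by 2-fold or more (2.69% and 1.7% of the genes tested). In 1970 genes (14.5%) the 5 hippocampus and the 5 cortex libraries did not overlap, 895 with hippocampus above cortex (6.57%) and 1075 with hippocampus below it (7.89%), and 1724 of these were called. Of the called genes, 2525 had the same sign in all 5 pairs. The balance depended on scaling: with total counts in place of TMM, 1895 genes were higher and 1005 lower. The count without the pair of 12 weeks was 1777, and 1538 genes were called with all pairs and with each pair left out in turn. A fold above 1.5 was shown for 372 genes. All fold changes below are log2 fold changes of hippocampus over cortex ± SE, and adjusted p-values are those of edgeR over all genes tested. Counts of called members in the gene lists below stand beside the 9.74% higher and 10.8% lower over all genes tested. The lists were chosen with earlier results of these data known, so a share beyond these values is no test of a list.

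**Figure D1:**
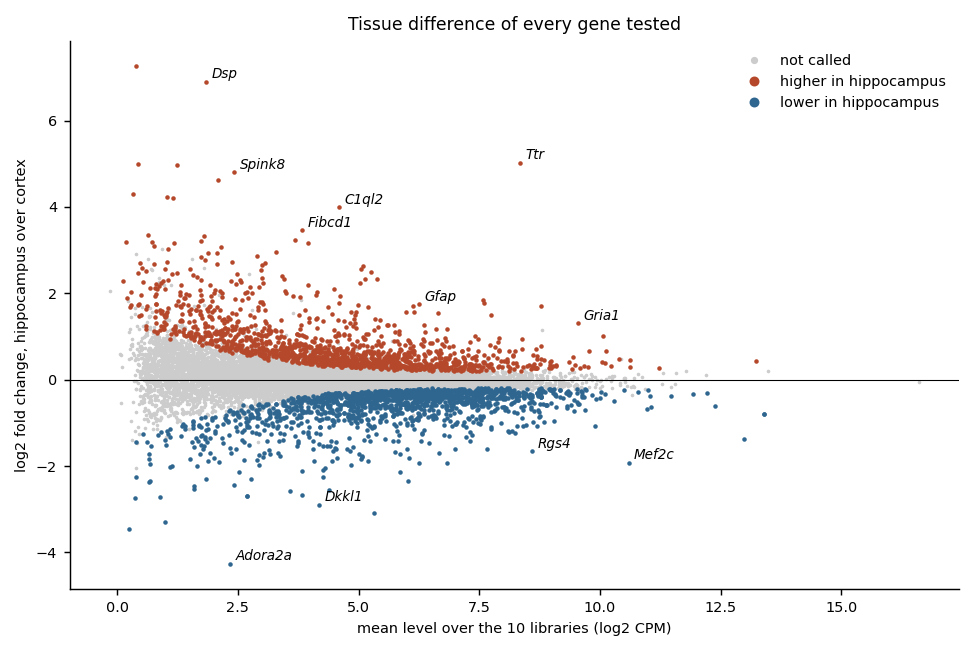
Log2 fold change of hippocampus over cortex (vertical axis) against the mean log2 CPM over the 10 libraries (horizontal axis), with 1 point per gene. Red points are the 1327 genes called higher in hippocampus, blue points the 1470 called lower and grey points the rest of the 13625 tested.

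Genes of hippocampal neurons were among those with the largest differences. Dsp, which encodes the desmosome protein desmoplakin and is used by dentate granule cells, lies at chr13:38151294-38198577 on mm10. Its level was 25.4, 30.1, 39.1, 23.9 and 32.3 CPM in the hippocampus libraries, against 0.672, 0, 0.376, 0 and 0.137 CPM in the cortex libraries. In all, 1196 counts fell in hippocampus and 9 in cortex, a fold change of 6.90 ± 0.34 (adjusted p = 3.2e-07). Lct, the lactase gene, also a gene of granule cells (chr1:128284756-128328318), had 17.5, 22.1, 21.2, 19.9 and 15.5 CPM in hippocampus and 0.537, 0.293, 1, 1.42 and 0.546 CPM in cortex, and no library of one tissue reached the other. C1ql2, a synaptic organiser of the mossy fibres (chr1:120340582-120343174), stood at 112, 105, 122, 91.2 and 69 CPM in hippocampus and 10.3, 5.28, 4.64, 2.48 and 9.42 CPM in cortex. Its fold change was 3.99 ± 0.25, that of Lct 4.61 ± 0.26. Prox1, the transcription factor that sets granule cell identity, had 28.2, 29.2, 28.6, 15.7 and 20.3 CPM in hippocampus and 5.91, 5.28, 5.02, 4.37 and 3.41 CPM in cortex (2.33 ± 0.14), and was lowest among the hippocampus libraries at 16 and 20 weeks. Of 17 dentate genes tested 10 were higher and 1 was lower, with a median of 0.91, against 0.02 over all genes tested. The lower one was Akap7, an anchoring protein for protein kinase A, at -0.40 ± 0.07. Calb1, the calcium buffer of granule cells, which cortical neurons use as well, did not separate the tissues (0.08 ± 0.14, adjusted p = 0.729).

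The fields of pyramidal cells differed in how well their genes marked the hippocampus. Fibcd1, a receptor gene of CA1 cells (chr2:31813290-31846005), had 80.8, 43.2, 62.5, 30.1 and 31.9 CPM in hippocampus, against 3.49, 4.25, 2.88, 4.49 and 6.14 CPM in cortex (3.46 ± 0.27). Its hippocampal level was highest in the control and lowest at 16 and 20 weeks, and stayed above every cortex library. Of 6 CA1 genes tested 5 were higher, among them Man1a, a mannosidase of the Golgi (1.04 ± 0.17), Pou3f1, a POU transcription factor (0.86 ± 0.14), and Wfs1, the wolframin gene (0.66 ± 0.13). Pou3f1 and Wfs1 overlapped between the tissues through the libraries of 20 weeks. Of 10 CA2 genes 7 were higher, including Amigo2, a cell adhesion protein of CA2 (28.9, 26.6, 20, 18.5 and 19.5 CPM in hippocampus, 8.33, 7.92, 8.4, 6.86 and 8.19 CPM in cortex, adjusted p = 2.4e-05), and Rgs14, a brake on plasticity in that field (0.70 ± 0.08). Pcp4, a calmodulin-binding protein of CA2 that layer 5 and the striatum also use, was lower, with 151, 259, 146, 159.6 and 222 CPM in hippocampus and 383, 610.1, 488, 437 and 264 CPM in cortex (-1.21 ± 0.16). Of 7 CA3 genes 2 were higher and 3 lower. Iyd, a deiodinase gene, had 5.57, 4.42, 7.71, 3.96 and 2.23 CPM in hippocampus and 0.134, 0.293, 0.125, 0 and 0.137 CPM in cortex (5.00 ± 0.47, on 190 and 5 counts), whereas Coch was lower (-1.39 ± 0.25). Calb2, the calretinin gene of hilar mossy cells and of a class of interneurons, was the 1 of 3 mossy cell genes called, at 42.1, 64, 30.7, 18.5 and 28.3 CPM in hippocampus and 7.52, 7.92, 9.78, 7.68 and 11.2 CPM in cortex (1.95 ± 0.22).

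Genes listed for the hippocampus without a single field were higher as a group, with 5 of 6 called and a median of 1.89. Their spread over the fields cannot be read from these whole-tissue libraries. Spink8, a peptidase inhibitor, had 40.1, 26.8, 39.5, 24 and 18 CPM in hippocampus and 0, 1.03, 2.51, 1.18 and 0.546 CPM in cortex (4.80 ± 0.34, chr9:109812280-109826633). Zbtb20, a zinc finger factor needed for hippocampal identity, had 158, 142, 123, 108 and 105 CPM in hippocampus and 32.2, 38.9, 40.8, 43 and 37 CPM in cortex (1.71 ± 0.12). Klk8, the neuropsin gene, stood at 7.8, 6.74, 6.14, 5.49 and 3.8 CPM in hippocampus, against 0.806, 0.147, 0.502, 0.709 and 1.09 CPM in cortex (3.16 ± 0.38). All 3 separated the tissues without overlap. Hpca, the calcium sensor hippocalcin, was abundant in both, at 1457, 1169, 1315, 980.2 and 728 CPM in hippocampus and 537, 865, 780.3, 839 and 539 CPM in cortex (0.66 ± 0.14), and the hippocampus library of 20 weeks lay below 3 cortex libraries. Among the largest differences were also Lhx9, a LIM homeobox factor (17.3, 11.7, 12.9, 6.9 and 6.69 CPM in hippocampus, 0.537, 1.03, 0.125, 0 and 0.137 CPM in cortex, 4.98 ± 0.40), and Shisa6, an AMPA receptor partner (65.8, 45, 49.7, 39.9 and 32.1 CPM in hippocampus, 5.64, 5.58, 5.02, 4.96 and 4.37 CPM in cortex, 3.16 ± 0.12). The orphan receptor Gpr101 was higher with overlap (3.22 ± 0.46). Shisa6 had the smallest p of all genes. Il16 (3.07 ± 0.22) and the CA2 gene Stard5 (1.35 ± 0.18) overlap on opposite strands, and since the strand setting of the counts is not stated their reads cannot be told apart. The same holds for Gabra5 with Gm9962, Gabrb1 with Gabra4, Hpca with Tmem54, Nr3c2 with Gm10649, Zeb2 with Zeb2os, Amigo2 with Pced1b, Klk8 with 2310002F09Rik, Prkca with Apoh, Emx2 with Emx2os, Kcnh3 with Mcrs1, Kcnh7 with Gca, Ahsg with Gm30505, F5 with Gm16548, Grin1 with Grin1os, Igf2 with Igf2os, Man1a with Gm16998, Otx2 with Otx2os1, Ppp1r1b with 1700003D09Rik and Zic1 with Zic4. Pcp4 overlaps Igsf5, Neurod1 overlaps Cerkl and Serpina3k overlaps Serpina3m on the same strand.

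**Figure D2:**
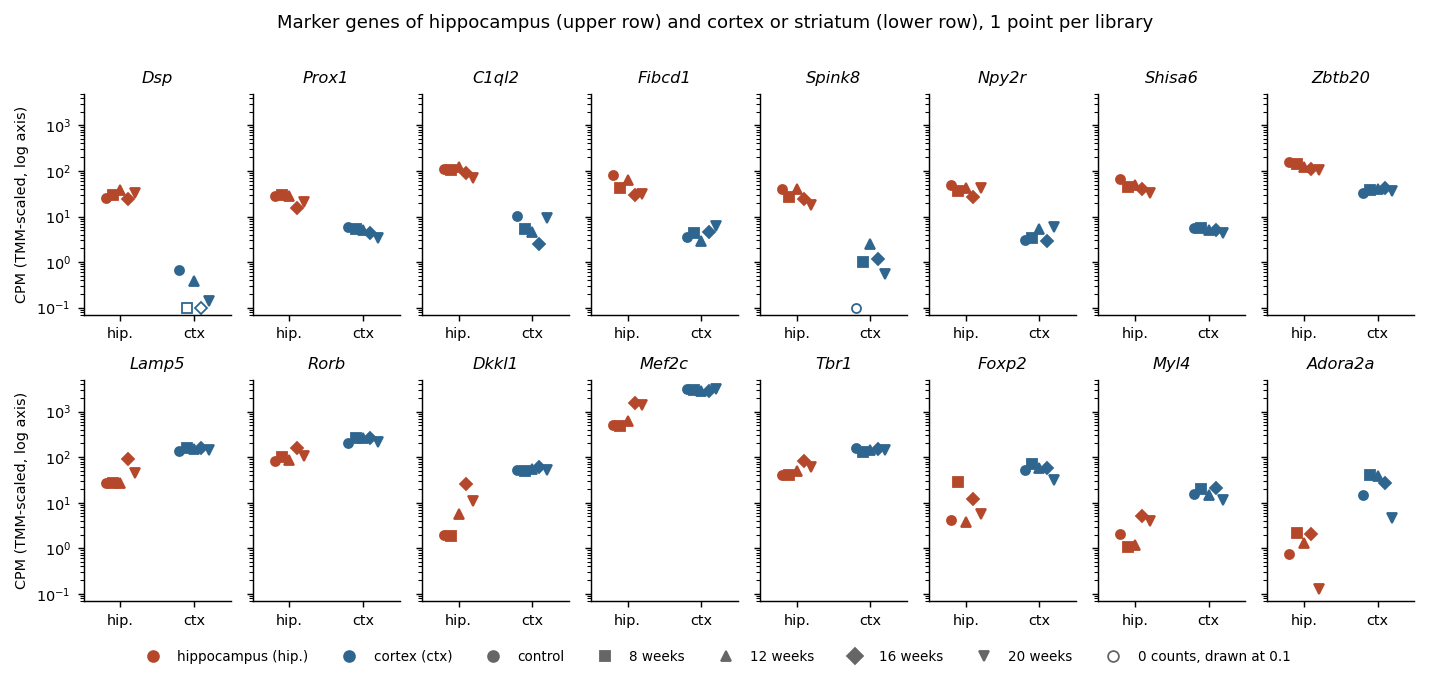
Level of 16 genes in each of the 10 libraries, as TMM-scaled CPM on a log axis, with hippocampus left and cortex right in each panel and 1 symbol per exposure. Dsp stands at 23.9 to 39.1 CPM in hippocampus and at 0 to 0.672 CPM in cortex, and in the lower row the hippocampus libraries of 16 weeks lie nearest to cortex for Lamp5, Dkkl1 and Mef2c.

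Genes of the upper cortical layers were lower in hippocampus almost throughout. Of 10 genes of layers 2 to 4 tested 9 were lower, with a median of -1.06. Lamp5, a membrane protein of layers 2 and 3 and of a class of interneurons (chr2:136052239-136069917), had 27.6, 27.6, 27.2, 89.9 and 45.6 CPM in hippocampus and 135, 163, 154, 156 and 143 CPM in cortex (-1.93 ± 0.21). Rorb, the nuclear receptor of layer 4, had 83.9, 99, 88.9, 158 and 104 CPM in hippocampus and 208, 258, 260.5, 268 and 212 CPM in cortex (-1.20 ± 0.10). In both genes the hippocampus library of 16 weeks was the highest of its tissue and still below every cortex library. Rspo1, a WNT agonist, was lower (1.61, 0.813, 2.09, 10.3 and 1.57 CPM in hippocampus, 15.7, 14.7, 16.1, 22.6 and 15.2 CPM in cortex, -2.68 ± 0.34), as were the upper layer factors Pou3f2 (-1.40 ± 0.16) and Cux2 (-1.22 ± 0.20).

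Genes of layer 6 were lower as well, and those of layer 5 split. Of 12 genes of layers 6 and 6b 8 were lower and none was higher, with a median of -0.87. Foxp2, a forkhead factor of layer 6, had 4.21, 28.2, 3.79, 12.1 and 5.64 CPM in hippocampus and 51.6, 70, 59.3, 59.3 and 31 CPM in cortex (-2.55 ± 0.29). Its highest hippocampal value, at 8 weeks, was close to the lowest cortical one, at 20 weeks. In cortex Foxp2 was highest at 8 weeks and lowest at 20 weeks, as were the summed striatal genes (1827 and 356 CPM). In hippocampus the summed genes of thalamus and habenula were also highest at 8 weeks (881 CPM). The part of striatal or thalamic tissue in the Foxp2 difference was not tested. Tbr1, the T-box factor of early-born cortical neurons, had 41.1, 40.8, 49.3, 82.3 and 59.7 CPM in hippocampus and 162, 133, 147, 153 and 145 CPM in cortex (-1.48 ± 0.13, chr2:61802930-61814114). Syt6, a synaptotagmin of layer 6, was lower too (-1.74 ± 0.18). Among 11 genes of layer 5, 3 were higher, 3 were lower and 5 did not pass. The lower ones were Pcp4, given above with CA2, Deptor and Nefh. Deptor had 27.5, 44, 42.4, 57.2 and 38.7 CPM in hippocampus and 98.2, 78.1, 64.6, 92.1 and 81.9 CPM in cortex, without overlap. The higher ones were Crym, which binds thyroid hormone (269, 125, 183, 81.1 and 129 CPM in hippocampus, 62.7, 61.8, 70.9, 57.1 and 72.8 CPM in cortex, 1.17 ± 0.17), Bcl6 (0.94 ± 0.12) and Bcl11b, the factor also called CTIP2 (0.58 ± 0.10), and CA1 or granule cells are known to use Crym and Bcl11b as well. Fezf2, the selector of subcortical projection neurons, gave -0.08 ± 0.21 (adjusted p = 0.824) and Etv1 0.33 ± 0.14 (adjusted p = 0.116).

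Of 7 cortex-wide genes 5 were lower. Mef2c had 500.2, 486, 609, 1564 and 1365 CPM in hippocampus and 3215, 2992, 2876, 2877 and 3139 CPM in cortex (-1.93 ± 0.24), the most abundant gene of this list. Dkkl1, a Dickkopf-like secreted protein had 1.98, 1.86, 5.62, 25.3 and 11 CPM in hippocampus and 52.3, 49.7, 54.4, 62.4 and 53.7 CPM in cortex (-2.89 ± 0.38). Both separated the tissues in every library, and both had their highest hippocampal value at 16 weeks. The summed level of the list was 1678, 1492, 1738, 2791 and 2363 CPM in hippocampus and 4727, 4748, 4448, 4554 and 4605 CPM in cortex. Kcnab3, a potassium channel subunit, was -1.42 ± 0.10, and Myl4, a myosin light chain, -2.68 ± 0.32. Also among the 12 largest falls were Gm11549 (-2.58 ± 0.30), Ovol2, a zinc finger factor (-2.43 ± 0.31), and Cited4, a transcriptional coregulator (-2.29 ± 0.34), none with overlap.

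The transcription factors that pattern the forebrain split in both directions, with 15 of 48 higher and 20 lower. Higher in hippocampus were Prox1, Zbtb20, the LIM-only factor Lmo1 (1.79 ± 0.19), the corepressor Zeb2 (0.81 ± 0.08) and the neuronal bHLH factors Neurod1 (0.81 ± 0.11), Neurod2 (0.48 ± 0.10) and Neurod6 (0.94 ± 0.14). Emx2, needed for the dentate gyrus, was higher (0.54 ± 0.11), and its paralog Emx1 was lower (-0.76 ± 0.15). Lower besides the layer factors were Foxp1 (-0.99 ± 0.10), Meis2 (-1.06 ± 0.14), which striatal neurons also use, Tshz3 (-0.89 ± 0.18) and Rora (-0.89 ± 0.12). Lhx2, which the embryonic cortex needs, gave 0.08 ± 0.06 and was not called.

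The promoters of 5 genes are shown, 3 of genes higher and 2 of genes lower in hippocampus, because their levels separated the tissues in every library and they carry the motifs counted here. The sequences are RefSeq promoters on GRCm38.p6, from 250 bases before the start that RefSeq lists to 50 after it (for Tbr1 and Dkkl1 that start lies inside the gene span given by the gene annotation), read 5′ to 3′ on the gene's strand. Capitals mark CAGATG, an E-box of neuronal bHLH factors, or its reverse complement CATCTG, the E-box CAGCTG, the TATA box TATAAA or its reverse complement TTTATA, and the GC box GGGCGG or its reverse complement CCGCCC.
Dsp, chr13:38151044-38151343, plus strand: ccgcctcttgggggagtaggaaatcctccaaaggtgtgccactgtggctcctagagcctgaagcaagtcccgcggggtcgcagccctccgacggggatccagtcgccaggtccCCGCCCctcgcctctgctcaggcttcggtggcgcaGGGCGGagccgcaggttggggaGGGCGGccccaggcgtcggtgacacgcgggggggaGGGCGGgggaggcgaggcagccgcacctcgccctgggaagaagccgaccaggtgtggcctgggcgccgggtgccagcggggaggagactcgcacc
Prox1, chr1:190170778-190171077, minus strand: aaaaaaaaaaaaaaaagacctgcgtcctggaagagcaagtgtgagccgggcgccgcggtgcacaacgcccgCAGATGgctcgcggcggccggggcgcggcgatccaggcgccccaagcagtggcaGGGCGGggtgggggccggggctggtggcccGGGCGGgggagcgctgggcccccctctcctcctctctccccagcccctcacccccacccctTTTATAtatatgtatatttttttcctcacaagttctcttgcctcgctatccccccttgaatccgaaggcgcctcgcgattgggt
Gabra5, chr7:57510010-57510309, minus strand: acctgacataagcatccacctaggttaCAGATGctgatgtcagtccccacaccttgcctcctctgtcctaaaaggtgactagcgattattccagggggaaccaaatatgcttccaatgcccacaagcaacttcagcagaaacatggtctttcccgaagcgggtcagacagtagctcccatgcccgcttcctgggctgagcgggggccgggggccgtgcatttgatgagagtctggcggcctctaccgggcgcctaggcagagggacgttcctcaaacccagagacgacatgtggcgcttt
Dkkl1, chr7:45211834-45212133, minus strand: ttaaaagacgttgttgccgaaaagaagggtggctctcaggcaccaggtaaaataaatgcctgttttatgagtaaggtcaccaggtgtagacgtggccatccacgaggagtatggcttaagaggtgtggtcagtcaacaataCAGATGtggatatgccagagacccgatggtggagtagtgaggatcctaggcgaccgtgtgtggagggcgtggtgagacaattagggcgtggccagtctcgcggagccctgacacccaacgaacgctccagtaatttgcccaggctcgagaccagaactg
Tbr1, chr2:61804203-61804502, plus strand: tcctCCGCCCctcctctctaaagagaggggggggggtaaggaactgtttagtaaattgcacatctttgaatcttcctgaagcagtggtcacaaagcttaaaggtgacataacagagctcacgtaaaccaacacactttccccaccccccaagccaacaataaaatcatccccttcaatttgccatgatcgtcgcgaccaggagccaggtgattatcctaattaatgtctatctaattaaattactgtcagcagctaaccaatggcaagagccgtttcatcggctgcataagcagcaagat
The promoter of Dsp holds 4 GC boxes, that of Prox1 1 E-box, 2 GC boxes and 1 TATA match on the reverse strand, and that of Tbr1 1 GC box. Gabra5, higher in hippocampus, and Dkkl1, lower there, each hold 1 CAGATG. Among the 10336 genes tested that have a promoter in the table, of which the first listed was used, 11.4% hold CAGATG on either strand, 15.2% CAGCTG, 6.94% TATAAA and 64.3% GGGCGG. Among 266 genes 2-fold or more higher in hippocampus the shares were 16.9%, 16.9%, 11.3% and 53.8% in that order, and among 160 genes 2-fold or more lower they were 14.4%, 13.1%, 11.9% and 52.5%. Promoters of these 2 groups held a median of 12 and 14.5 CpG dinucleotides, against 21 over all. The counts describe letters in these windows, and no test was made.

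Glutamate receptor genes differed by subunit, not as a family: 7 of 21 were higher and 6 lower. Gria1, the AMPA receptor subunit that moves to synapses in long-term potentiation, had 1449, 1151, 1405, 920.4 and 1034 CPM in hippocampus and 504, 445, 451, 477 and 502 CPM in cortex (1.31 ± 0.10, chr11:57011387-57330244). The hippocampus libraries of 16 and 20 weeks were the lowest of their tissue and still above every cortex library. Grin2a, the mature NMDA receptor subunit, was higher at a low level (8.92, 10.3, 10.7, 11.1 and 12.5 CPM in hippocampus, 6.85, 6.16, 3.26, 4.73 and 4.92 CPM in cortex, 1.07 ± 0.21). Lower were Grm3, a metabotropic receptor of astrocytes and neurons (49.5, 47.5, 47.1, 57.9 and 50.8 CPM in hippocampus, 98.7, 101, 89.4, 95.6 and 95.6 CPM in cortex, -0.93 ± 0.08), the kainate receptor Grik3 (-0.94 ± 0.12) and Gria4, the AMPA subunit of interneurons (-0.66 ± 0.09). The obligatory NMDA subunit Grin1 (-0.21 ± 0.08, adjusted p = 0.0796) and Grin2b (0.06 ± 0.08, adjusted p = 0.677) did not pass.

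Among 13 genes of GABA receptors 3 were higher and 6 lower. Gabra5, the subunit of extrasynaptic receptors on pyramidal dendrites, had 159.9, 118, 140.4, 96.5 and 106 CPM in hippocampus and 49.4, 36.7, 39.9, 38.3 and 44.1 CPM in cortex (1.56 ± 0.09, chr7:57407672-57510059). Gabra2 was higher (0.88 ± 0.09) and Gabrb1 was 0.35 ± 0.08, with overlap, a call lost without the pair of 12 weeks. Gabrd, which forms other extrasynaptic receptors, was lower, with 10.4, 13.1, 9.67, 22.1 and 16.7 CPM in hippocampus and 32, 43.6, 40.8, 40.1 and 34.7 CPM in cortex (-1.44 ± 0.16), as was Gabra3 (-0.86 ± 0.10). Gabra5 and Gabrd thus differed in opposite directions, and the groups did not overlap in either.

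Receptors for neuromodulators held some of the larger differences. Npy2r, the presynaptic receptor for neuropeptide Y, had 48.1, 37.2, 41.2, 27.3 and 41.5 CPM in hippocampus and 3.09, 3.38, 5.39, 2.84 and 6.01 CPM in cortex (3.24 ± 0.16, chr3:82538383-82548084). Drd5, a D1-class dopamine receptor, had 12.4, 16.1, 17.6, 9.84 and 9.05 CPM in hippocampus and 2.42, 1.32, 3.64, 4.14 and 1.91 CPM in cortex (2.26 ± 0.27). Htr4, a serotonin receptor coupled to cyclic AMP, was higher at a low level (3.84, 4.42, 4.31, 2.04 and 3.54 CPM in hippocampus, 0.672, 0.734, 0.753, 0.473 and 0.137 CPM in cortex, 2.68 ± 0.37). Of 24 receptors for monoamines and acetylcholine 6 were higher, among them the serotonin receptors Htr2c (0.90 ± 0.14), Htr1a (1.02 ± 0.22) and Htr5b (2.46 ± 0.56). Htr2c is also strong in choroid plexus. In that list 10 were lower. Adra1b, a noradrenaline receptor, had 5.45, 9.64, 6.01, 15.2 and 9.31 CPM in hippocampus and 43.1, 47.8, 40.1, 47.8 and 33.6 CPM in cortex (-2.26 ± 0.17), and Adrb1 (adjusted p = 0.000274), Hrh3, the histamine autoreceptor (-0.92 ± 0.10), and Drd1 (-2.34 ± 0.36) were lower as well. Drd1, a dopamine receptor that striatal neurons also express strongly, had 19.8, 33, 20.7, 27.1 and 54.8 CPM in hippocampus and 125, 249, 204, 166 and 58.4 CPM in cortex. Its cortex values moved with the summed striatal genes (860.2, 1827, 1589, 1324 and 356 CPM in cortex), and at 20 weeks the tissues were about equal. The part of striatal tissue in this difference was not tested. Htr2a, the serotonin receptor of cortical pyramidal cells, was at 32 counts in hippocampus and 85 in cortex (-1.44 ± 0.34), a call lost without the pair of 12 weeks.

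For peptides and steroids 5 of 27 receptors were higher and 9 lower, against 9.74% and 10.8% over all genes tested. The 2 corticosteroid receptors differed in direction: Nr3c2, the mineralocorticoid receptor that the hippocampus is known for, had 6.69, 7.78, 6.14, 3.83 and 7.08 CPM in hippocampus and 1.88, 1.61, 0.753, 1.77 and 1.36 CPM in cortex (2.07 ± 0.29). Nr3c1, the glucocorticoid receptor, had 80.3, 70.4, 94.1, 90.6 and 70.8 CPM in hippocampus and 107, 91.7, 94.1, 95.9 and 108 CPM in cortex (-0.29 ± 0.09, adjusted p = 0.0415). The groups overlapped in Nr3c1, and its call was lost with total counts and without the control, 8 weeks or 20 weeks. Cckbr, the brain receptor for cholecystokinin, was lower, with 7.18, 5.81, 10.5, 39.5 and 27.7 CPM in hippocampus and 70, 47.7, 51, 64.1 and 65.4 CPM in cortex (-1.97 ± 0.31). Its hippocampal level was highest at 16 and 20 weeks. The kappa opioid receptor Oprk1 (-2.13 ± 0.19) and the stress peptide receptor Crhr1 (-1.09 ± 0.23) were lower too, and Trhr, the receptor for thyrotropin-releasing hormone, was higher (1.49 ± 0.26) with overlap, a call lost without exposure as a factor.

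Ion channel genes were more often lower than higher in hippocampus: 32 of 64 were lower, 7 higher, 25 were not called and the median was -0.27. With total counts alone 27 were lower and 8 higher. Kcnv1, a modifier subunit of potassium channels, had 58, 39.3, 39.1, 78.8 and 79 CPM in hippocampus and 166, 189.6, 192, 176 and 191 CPM in cortex (-1.69 ± 0.16). Scn4b, a sodium channel subunit that striatal neurons use heavily, had 3.47, 8.83, 7.32, 10.1 and 2.1 CPM in hippocampus and 29, 56.3, 50.3, 53.2 and 11.6 CPM in cortex (-2.67 ± 0.12). In the ether-a-go-go family 5 members were lower, Kcnh1 (-0.92 ± 0.09), Kcnh3 (-0.83 ± 0.14), Kcnh4 (-1.60 ± 0.28), Kcnh5 (-1.45 ± 0.37) and Kcnh7 (-1.10 ± 0.17). Higher were Scn3b (66.4, 68.2, 74.5, 54.3 and 61.3 CPM in hippocampus, 34.8, 24.4, 25.8, 22.9 and 31.9 CPM in cortex, 1.22 ± 0.11), Cacng5, an AMPA receptor auxiliary of CA2 (1.13 ± 0.16), and Kcnab2 (0.55 ± 0.07).

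Of 32 signalling enzymes 15 were lower and 6 higher, and with total counts alone 11 lower and 9 higher. Rgs4, a brake on Gq signalling, had 203, 155, 182, 384 and 218 CPM in hippocampus and 616, 948, 723, 672 and 546 CPM in cortex (-1.66 ± 0.20), and Camk4 (-0.93 ± 0.15), Pde4b (-0.60 ± 0.07) and Rgs2 (-0.65 ± 0.08) were lower too. Pde10a (-1.43 ± 0.26) and Rgs9 (-1.60 ± 0.27), also lower, are known for the striatum. Camk2b, a subunit of the kinase of synaptic plasticity, was higher, with 854, 819.9, 879, 779 and 830.2 CPM in hippocampus and 594, 601, 604, 585 and 533 CPM in cortex (0.51 ± 0.07), as was Prkca (0.76 ± 0.08). Camk2a, its partner, gave 0.20 ± 0.08 and was not called.

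Genes of axon guidance leaned towards hippocampus, with 19 of 39 higher, 11 lower and a median of 0.31. Slit1, a repellent ligand, had 58.7, 44.6, 54, 33.7 and 41.5 CPM in hippocampus and 14.6, 8.8, 11.5, 8.98 and 10.1 CPM in cortex (2.10 ± 0.10). Both neuropilins, which bind class 3 semaphorins, were higher. Nrp2 had 62.6, 59, 58.8, 42.7 and 70.4 CPM in hippocampus and 19.2, 12.5, 20.8, 13.8 and 22 CPM in cortex (1.74 ± 0.11). Nrp1 was 1.17 ± 0.15. Sema3a, a ligand, was lower (3.96, 8.25, 6.27, 17.4 and 15.1 CPM in hippocampus, 41.1, 41.8, 42.9, 42 and 35.4 CPM in cortex, -2.09 ± 0.26). The ligand Efna5 was lower (-1.73 ± 0.15), while 5 ephrin receptors of the A class were higher, Epha6 (1.86 ± 0.20), Epha3 (1.36 ± 0.31), Epha7 (1.11 ± 0.08), Epha5 (0.67 ± 0.08) and Epha4 (0.54 ± 0.08). Sema5a was higher (1.28 ± 0.08) and Ephb6 lower (-1.17 ± 0.10). Of 18 cadherins and protocadherins 5 were higher and 7 lower, against 9.74% and 10.8% over all genes tested. Pcdh20, a protocadherin, had 116, 81.1, 90.3, 56.8 and 65.7 CPM in hippocampus and 10.6, 12.5, 19.2, 9.81 and 16.9 CPM in cortex (2.56 ± 0.17), whereas Cdh18 (-1.26 ± 0.33) and Cdh12 (-0.92 ± 0.12) were lower.

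Genes of some interneuron classes were lower in hippocampus. Of 25 tested 2 were higher, near the 9.74% over all genes tested, and 7 lower, against 10.8%. The general markers Gad1 (-0.19 ± 0.09, adjusted p = 0.173) and Gad2 (-0.06 ± 0.09, adjusted p = 0.709) and the somatostatin gene Sst (-0.17 ± 0.09, adjusted p = 0.242) did not pass. Lower were genes of particular classes. Pvalb, of fast-spiking cells, had 38, 46.5, 49, 50 and 20.5 CPM in hippocampus and 63.7, 78.2, 78.1, 79 and 58.6 CPM in cortex (-0.85 ± 0.12). Npy, the neuropeptide Y gene, had 97.4, 64, 76.3, 119 and 110.2 CPM in hippocampus and 189.7, 196, 193, 201 and 153 CPM in cortex (-1.02 ± 0.13), the reverse of its receptor Npy2r. Crh was lower (-1.53 ± 0.22), and so were Vip (-0.89 ± 0.13), Tac1 (-1.58 ± 0.34) and Penk (-2.14 ± 0.45), the last pair also genes of striatal projection neurons. Ndnf, of layer 1 cells and of the outer hippocampus, was higher (0.99 ± 0.20) with overlap.

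Immediate early genes, which neuronal activity switches on, were more often lower, with 15 of 33 lower, 4 higher and a median of -0.42. Ier5 had 36.3, 39.4, 52.7, 84.6 and 38.4 CPM in hippocampus and 119, 102, 139, 150.1 and 143 CPM in cortex (-1.43 ± 0.13). Egr1 had 146, 122, 190.1, 359 and 158 CPM in hippocampus and 525, 388, 386, 374 and 394 CPM in cortex (-1.18 ± 0.20), and Homer1, a postsynaptic scaffold, was lower (-0.85 ± 0.10). Egr1 reached 359 CPM in hippocampus at 16 weeks, close to the lowest cortex library. The factor gene Jun (0.93 ± 0.08), the orphan receptor Nr4a3 (1.32 ± 0.14), Ptgs2 (1.09 ± 0.24) and the growth factor gene Bdnf (0.47 ± 0.08) were higher. Fos (-0.66 ± 0.29, adjusted p = 0.135), Arc (-0.82 ± 0.27, adjusted p = 0.0506) and Npas4 (-0.15 ± 0.30, adjusted p = 0.77) overlapped and were not called. The number lower was 6 without the pair of 8 weeks, 7 without 20 weeks, 9 without the control, 17 without 16 weeks and 10 with total counts, so the count depends on single pairs.

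Many astrocyte genes were higher in hippocampus, and genes of myelin, microglia and vessels gave few calls or none. Gfap, the intermediate filament of astrocytes, had 116, 184, 136, 143 and 129 CPM in hippocampus and 49.8, 34.3, 42.9, 34.6 and 48.2 CPM in cortex (1.75 ± 0.15, chr11:102887336-102900912). Of 21 astrocyte genes 11 were higher, among them Aqp4, the water channel of their endfeet (0.69 ± 0.13), Apoe (0.45 ± 0.07) and Clu (0.41 ± 0.07), and 1, Chrdl1, a gene of cortical upper layer astrocytes, was lower (-1.07 ± 0.25), a call lost without exposure as a factor. Of 19 genes of reactive astrocytes 8 were higher, led by Serpina3n (38, 32.9, 25.5, 21.2 and 18.9 CPM in hippocampus, 5.78, 6.9, 5.77, 9.57 and 7.1 CPM in cortex, 1.92 ± 0.20) and the complement gene C4b (1.31 ± 0.20), and S100a10 was lower (-0.35 ± 0.11), a call that most alternatives lost. Without the pair of 8, 12 or 16 weeks 5 of them were higher. Of 12 genes of oligodendrocyte precursors 4 were higher, including Cspg4, the NG2 gene (0.70 ± 0.13), and Ptprz1 (0.50 ± 0.08), which astrocytes also use, and 2 without exposure as a factor.

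Of 20 myelin genes 1 was called, Car2 (0.28 ± 0.07), below the background of 20.5%, and it was lost without the pair of 8, 12 or 16 weeks. Mbp, the myelin basic protein gene, had 1508, 3094, 2283, 2182 and 935 CPM in hippocampus and 1890.1, 2199, 1691, 1669 and 1142 CPM in cortex. Its hippocampal level was highest at 8 weeks and lowest at 20 weeks. Of 22 microglial genes 3 were called higher, C1qc (0.33 ± 0.09), Selplg (0.49 ± 0.14) and Ctss (0.23 ± 0.07), and none lower. That share is below the 20.5% called in either direction over all genes tested, and above the 9.74% called higher. None of the 3 was called without the pair of 12, 16 or 20 weeks, or by DESeq2. None of 16 endothelial genes was called by edgeR or by DESeq2 (1 with total counts), with Cldn5 of the tight junctions at -0.09 ± 0.15, and none of 7 red cell genes by either. At an unadjusted p under 0.05 there were 2 endothelial and 0 red cell genes. A missed threshold does not show that levels are equal.

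Genes that handle metals were called in both directions, and the shares called among genes of oxidants and complement were near the background. Of 14 zinc and metallothionein genes 3 were higher and 2 lower, against 9.74% and 10.8% over all genes tested. Mt2 had 296, 440.3, 357, 244 and 244 CPM in hippocampus and 194, 227, 213, 170.0 and 155 CPM in cortex (0.70 ± 0.07) and Mt1 was 0.43 ± 0.07, without overlap in either. Slc39a10, a zinc importer, was lower, with 125, 98.5, 111, 177 and 188 CPM in hippocampus and 276, 224, 234, 241 and 251 CPM in cortex (-0.85 ± 0.12). Slc30a3, which loads zinc into the vesicles of mossy fibres and of cortical neurons, gave -0.22 ± 0.17 (adjusted p = 0.4). Among 21 NRF2 and antioxidant genes 3 were higher, Gstm7 (0.68 ± 0.11), Gstm1 (0.51 ± 0.09) and catalase, Cat (0.52 ± 0.12), and Srxn1 was lower (-0.42 ± 0.08). In the complement and antigen presentation list C3 (1.88 ± 0.43), C4b and C1qc were higher among 14. The C3 call rested on 22.2 CPM at 16 weeks in hippocampus, against 2.36 to 4.09 CPM in the other hippocampus libraries and 0.41 to 3.08 CPM in cortex, and was lost without that pair.

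Genes of immature neurons, dividing cells and progenitors, which the adult dentate gyrus keeps, gave 5 higher and 2 lower of 12. Over all genes tested the shares were 9.74% and 10.8%. Hopx, of radial glia-like cells and astrocytes (38.5, 40.8, 35.7, 26.2 and 32.1 CPM in hippocampus, 16.1, 13.1, 19.1, 15 and 21.3 CPM in cortex, 1.03 ± 0.14), Igfbpl1 (1.89 ± 0.36), Sox11 (0.51 ± 0.10) and Neurod1 were among the higher. Igfbpl1 stood at 5.2, 12, 6.54, 3.58 and 0.787 CPM in hippocampus and 1.75, 1.47, 1.13, 1.54 and 0.683 CPM in cortex, with the libraries of 20 weeks nearest to each other. Dcx, the usual marker of immature neurons, gave -0.38 ± 0.15 (adjusted p = 0.108), and Stmn1 (-0.99 ± 0.10) and Tubb3 (-0.49 ± 0.09), both used by mature cortical neurons too, were lower.

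**Figure D3:**
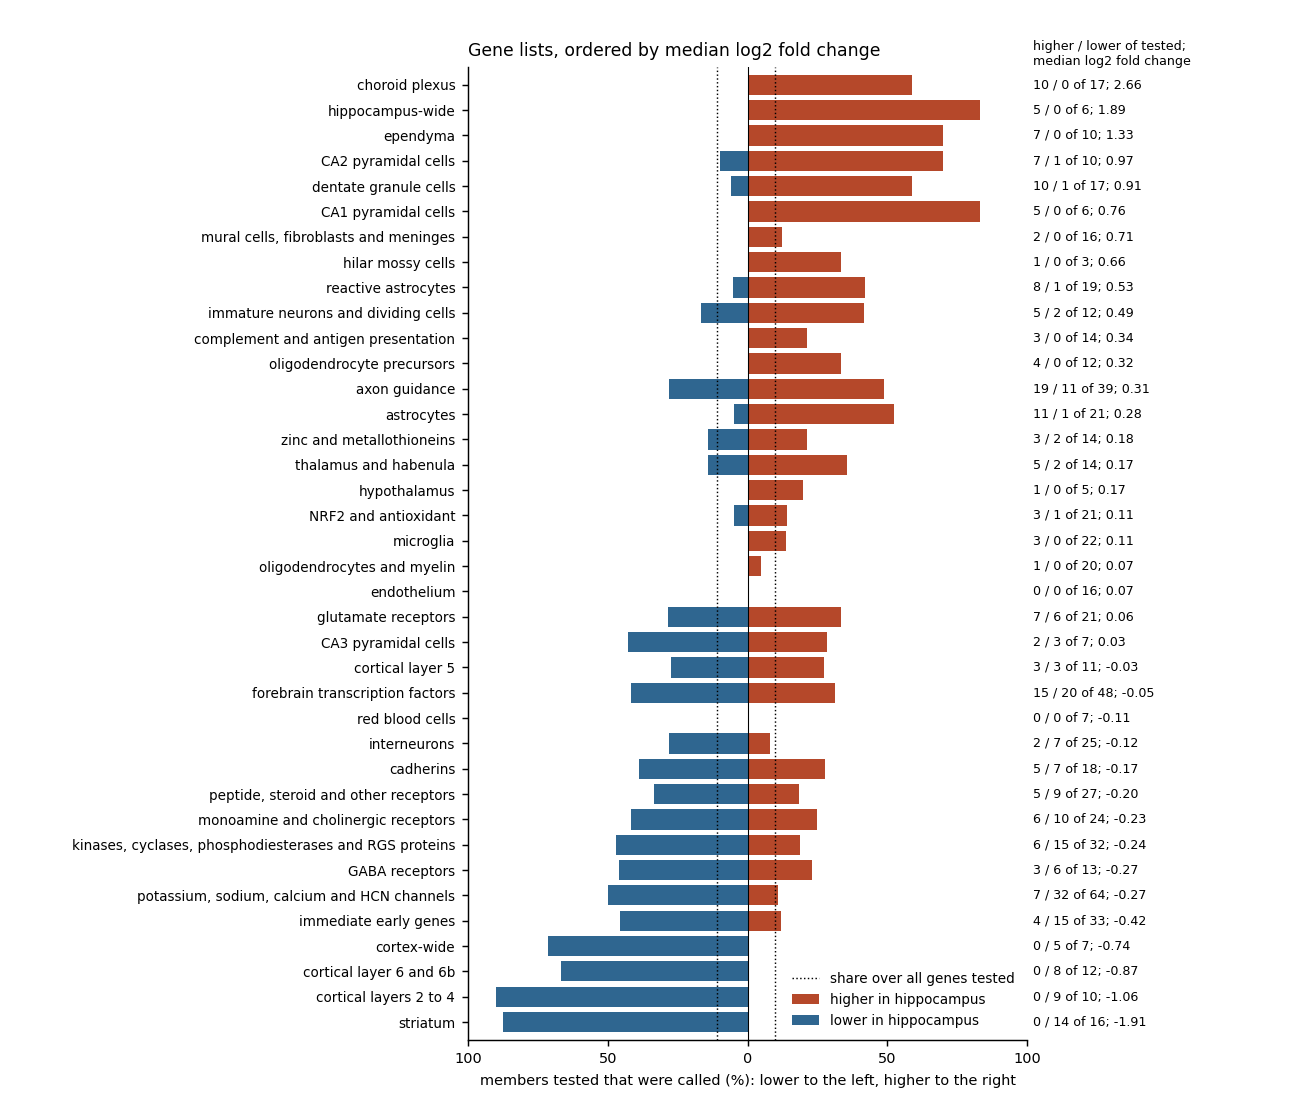
Share of the tested members of each of 38 gene lists called higher (red, to the right) or lower (blue, to the left) in hippocampus, with the counts and the median log2 fold change at the right. Dotted lines mark the shares over all genes tested, 9.74% higher and 10.8% lower. The lists of cortical layers 2 to 4 (9 of 10 lower) and of CA1 (5 of 6 higher) lie far beyond them. Members and lists were chosen with earlier results of these data known, so this distance is no test of a list.

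Genes of structures that border on the 2 tissues were among those with the largest differences. Ttr, the transthyretin gene of the choroid plexus, had 32.9, 2530.2, 1869.7, 4839.9 and 3291 CPM in hippocampus and 1159.6, 26.3, 170.3, 29.9 and 35 CPM in cortex. The control pair thus ran against the other 4, with log2 differences of -5.13 in the control and 6.58, 3.45, 7.33 and 6.55 at 8, 12, 16 and 20 weeks. The fold change was 5.02 ± 1.55 (adjusted p = 0.0397), a call lost without the pair of 8, 12, 16 or 20 weeks and without exposure as a factor. Over 18 choroid plexus genes the summed level was 215, 3709, 2787, 6467 and 4435 CPM in hippocampus and 1821, 335, 522, 353 and 299 CPM in cortex, with 3 members at 0 in the control hippocampus. Of 17 tested 10 were higher, 17 without the control pair and 2 or 3 without any other pair. Ependymal genes summed to 28.4, 70.4, 75.6, 62.2 and 48 CPM in hippocampus and 29.4, 16.1, 24.8, 18.2 and 20.8 CPM in cortex, about equal in the control pair. Of 10 genes 7 were higher, 10 without the control pair and 6, 3, 6 and 6 without the pair of 8, 12, 16 or 20 weeks, among them Ccdc153 (1.95 ± 0.31), Tmem212 (2.52 ± 0.46) and the master factor of motile cilia Foxj1 (1.02 ± 0.23). Of 16 mural, fibroblast and meningeal genes 2 were higher, Dcn (2.34 ± 0.33) and Igf2 (1.37 ± 0.37). That share is near the 9.74% called higher over all genes tested, and the groups overlapped in every member. The number was 9 without the control pair, 2 without 8 or 12 weeks and 1 without 16 or 20 weeks.

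Striatal genes were lower in hippocampus in 14 of 16 cases, with a median of -1.91, the lowest of the 38 lists. Adora2a, the adenosine receptor of striatal projection neurons (chr10:75316877-75334784), had 0.743, 2.21, 1.31, 2.04 and 0.131 CPM in hippocampus and 15.2, 39.9, 37.9, 26.9 and 4.64 CPM in cortex (-4.26 ± 0.20). Ppp1r1b, the DARPP-32 gene, had 32.7, 66, 45.1, 93.3 and 80 CPM in hippocampus and 164, 375, 364, 318 and 74.5 CPM in cortex (-1.93 ± 0.33). The cortex library of 20 weeks was the lowest of its tissue in both, and for Ppp1r1b it lay within the hippocampus libraries. The summed list gave 176, 363, 238, 329.7 and 363 CPM in hippocampus and 860.2, 1827, 1589, 1324 and 356 CPM in cortex, with the values of 20 weeks nearest to each other. Drd2, which marks the same class of striatal projection neurons as Adora2a and Penk, had 0 counts in hippocampus and 3 in cortex, too few to be tested or to give a direction.

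Of 14 genes of thalamus and habenula 5 were higher and 2 lower, and 2 higher without exposure as a factor. The lower members were Rora and Ramp3. Prkcd (9.17, 44.3, 12.7, 16.1 and 16.3 CPM in hippocampus, 3.09, 26.1, 5.27, 6.15 and 3.28 CPM in cortex, 1.37 ± 0.19) and Zic1 (9.66, 71.8, 26.3, 28.7 and 16.9 CPM in hippocampus, 6.72, 11.9, 10, 10.6 and 9.28 CPM in cortex, 1.43 ± 0.23) were highest at 8 weeks in both tissues. Without exposure as a factor Prkcd was not called. With the genes of the neighbouring regions and of blood left out of the fit 2829 genes were called, against 2797. The part of these structures in the other differences was not tested.

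**Figure D4:**
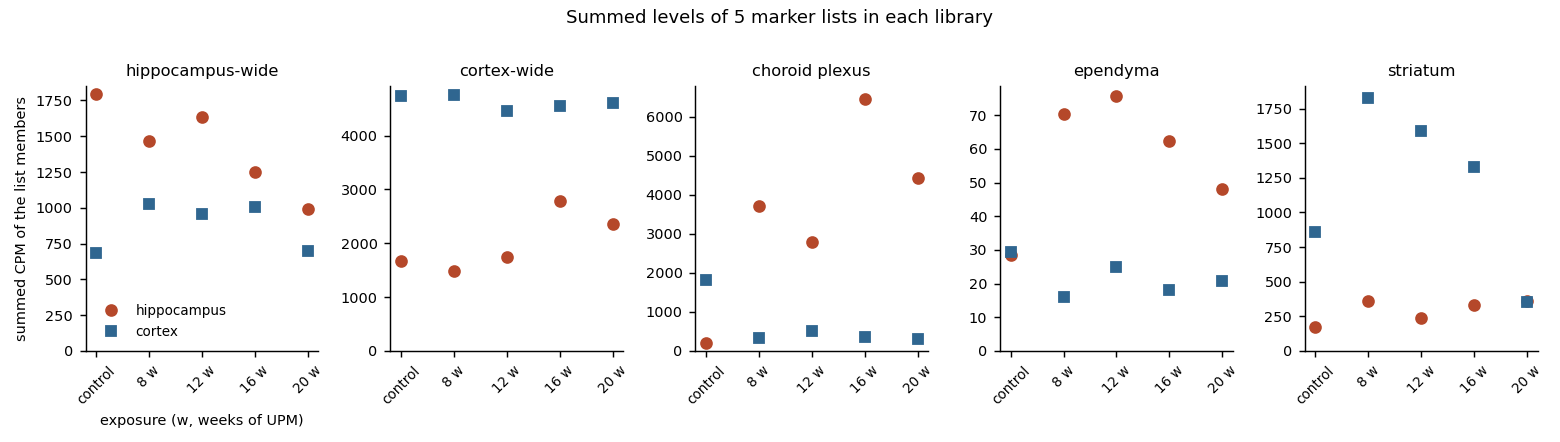
Summed CPM of the members of 5 marker lists (vertical axes, from 0) in each library by exposure (horizontal axes), with hippocampus as red circles and cortex as blue squares. Choroid plexus genes sum to 215 CPM in hippocampus and 1821 CPM in cortex in the control pair and to 2787 to 6467 CPM in hippocampus and 299 to 522 CPM in cortex in the other 4.

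The size of the tissue difference varied between the pairs. Genes called between the tissues in the other 8 libraries, which share no sample with these 10, were read in each pair. For 314 genes called higher there, the median log2 difference was 0.81 in the control pair and 0.64, 0.72, 0.47 and 0.51 at 8, 12, 16 and 20 weeks. For 320 genes called lower it was -0.93 in the control pair and -1.02, -0.83, -0.47 and -0.57 in the others. The signs matched for 88.1% to 98.1% of these genes in every pair. The pairs of 16 and 20 weeks, whose hippocampus libraries carried more Mef2c, Cckbr and Dkkl1, showed the smaller differences, and the part of that in them was not tested.

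The same contrast at 3 days to 3 weeks of UPM, with 4 pairs of libraries, called 636 of 13053 genes (4.87%), 315 higher (2.41%) and 321 lower (2.46%). The count was 305 without the pair of 3 days or that of 5 days and 392 without that of 3 weeks. Rn45s took 14.83 to 18.61% of the counts in these 8 libraries, against 7.75 to 12.88% in the other 10. They detected 14643 to 16225 genes, against 16550 to 17288. Their total counts were 5.43 to 7.37 M in hippocampus and 8.2 to 8.97 M in cortex. The variation between libraries that edgeR fitted beyond counting error (biological coefficient of variation) was 0.243, against 0.13. Of the 1243 genes called higher at control and 8 to 20 weeks and tested in both sets, 1060 (85.3%) were positive there as well, and 1257 of 1450 called lower (86.7%) were negative. Over all 12881 genes tested in both, 64.3% had the same sign. Genes called in both sets with the same sign numbered 256 higher and 273 lower, and none had opposite signs. The smallest p-values there belonged to Gabra5, Lct, Wipf3 (2.17 ± 0.18), Tanc1 (1.85 ± 0.16) and Spink8 among the higher genes and to Arpp19 (-1.79 ± 0.14), Exph5 (-2.76 ± 0.23), Kcnv1, Rgs4 and Mef2c among the lower ones. Dsp was 5.44 ± 0.61 at 3 days to 3 weeks, C1ql2 4.42 ± 0.49, Fibcd1 3.76 ± 0.35, Gria1 1.46 ± 0.15 and Gabra5 1.54 ± 0.12. Of the falls, Mef2c was -1.86 ± 0.18, Foxp2 -2.78 ± 0.28 and Lamp5 -2.08 ± 0.24. Among lists, 11 of the 11 dentate genes called had the same sign there, 8 of 9 of layers 2 to 4 and 12 of 12 of astrocytes, but 4 of 9 of the choroid plexus and 5 of 8 of reactive astrocytes. Ttr was -0.82 ± 1.21 and Apoe 0.04 ± 0.12 in those libraries.

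The test of whether the tissue difference itself differed between the 2 sets called 0 of 13362 genes by edgeR (0% in either direction), with 1531 at an unadjusted p under 0.05. DESeq2 called 68, 28 positive and 40 negative, and limma-voom 0. The sets differ in exposure, dosing rhythm, age and the way their files were named. They also differ in the share of Rn45s, the number of genes detected and the spread between libraries. These cannot be told apart.

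**Figure D5:**
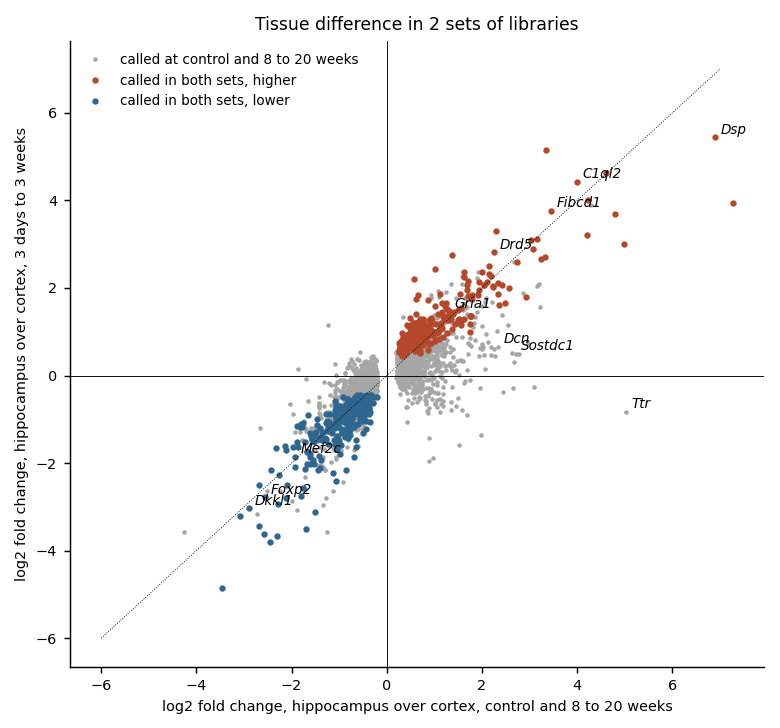
Log2 fold change of hippocampus over cortex at control and 8 to 20 weeks (horizontal axis) against that at 3 days to 3 weeks (vertical axis), with 1 point per gene called in the 10 libraries of control and 8 to 20 weeks. The 256 genes called higher in both sets (red) and the 273 called lower in both (blue) lie along the dotted line of equality, and Ttr lies far below it.

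The tissue difference was set against exposure in 2 ways within the 10 libraries. Between the 4 exposed pairs and the control pair the difference itself passed the test in 16 of 13625 genes (0.117%), all positive, and 12 of the 16 are choroid plexus genes. With 1 control pair its spread was taken from the exposed pairs, so exposure and an unusual control pair cannot be told apart here. Enpp2, the autotaxin gene, differed by 3.73 ± 0.26 (adjusted p = 0.000199), Otx2, the homeobox factor of that epithelium, by 7.08 ± 0.60, and the water channel Aqp1 by 8.55 ± 0.76. Aqp1 had 0.495, 9.53, 4.31, 13.5 and 7.74 CPM in hippocampus and 4.57, 0.147, 0.125, 0.355 and 0.137 CPM in cortex. Clic6 differed by 6.87 ± 0.69 and F5, the coagulation factor V gene, by 6.46 ± 0.68. Each value rests on the 1 control pair, with choroid plexus genes at 215 CPM in its hippocampus library and 1821 CPM in its cortex library. The other 4, not in the choroid plexus list used here, are 1500015O10Rik, Lbp, Plekhh2 and Rbm47. Of these 1500015O10Rik, Lbp and Rbm47 were also lowest in the control hippocampus and highest in the control cortex within each tissue. Plekhh2 had 10.4, 9.99, 11.5, 11.1 and 9.44 CPM in hippocampus and 45.9, 9.83, 9.16, 6.97 and 7.78 CPM in cortex.

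From 8 to 20 weeks the slope of the tissue difference per 10 weeks passed in 32 of 13662 genes (0.234%), 31 positive (0.227%) and 1 negative (0.00732%). The 22 largest slopes ran between 5.18 and 10.37, and the genes described first encode proteins that the liver secretes. Alb, the albumin gene, had 39, 6.62, 13.5, 328 and 10.1 CPM in hippocampus and 2.69, 37.1, 5.64, 27.7 and 1.09 CPM in cortex, with a slope of 6.77 ± 0.66 (adjusted p = 0.00199). Apoa1, of high-density lipoprotein, had 18.1, 3.14, 5.1, 89.6 and 7.74 CPM in hippocampus and 2.55, 12.9, 4.51, 7.21 and 0.546 CPM in cortex (6.57 ± 0.63). Ahsg, the fetuin gene (8.40 ± 0.75), Serpina3k (7.59 ± 0.81) and Serpina1e (10.37 ± 0.67) followed, and reads of the last pair can be shared with near-identical paralogs. In these 5 genes the hippocampus library of 16 weeks was the highest of all 10 and the cortex library of 8 weeks the highest of its tissue. The slope fit leaves out the control pair and has 2 residual degrees of freedom. In the control pair the log2 difference was 3.74 for Alb, 2.93 for Ahsg and 2.71 for Apoa1. It was -2.44, -2.86 and -1.96 at 8 weeks and 3.55, 3.63 and 3.59 at 16 weeks, in the same order. The other 9 positive slopes, between 0.95 and 1.27, were those of Camk4, a calcium-dependent kinase (1.10 ± 0.15), Npy, the neuropeptide Y gene (0.99 ± 0.16), the vesicle zinc transporter Slc30a3 (1.11 ± 0.19), Arpp21, Rasd2, Negr1, Kcnj4, Arpp19 and Pcdh7, named after their values were seen. Rasd2, of the striatum list, had 34.7, 34.3, 39.7, 50.8 and 32.9 CPM in hippocampus and 57, 129, 106, 95.7 and 42.3 CPM in cortex. Its cortex values fell from 8 to 20 weeks. Camk4 fell in cortex from 328 CPM at 8 weeks to 196 CPM at 20 weeks and rose in hippocampus from 103 to 156 CPM. Slc30a3 had 61.7, 58.9, 81.7, 96.2 and 152 CPM in hippocampus and 102, 93, 109, 101 and 92.4 CPM in cortex, with the highest hippocampus value at 20 weeks. Mef2c was also highest among hippocampus libraries at 16 and 20 weeks, and what sets these libraries apart was not tested. The 1 negative slope was that of Kcnip1, a potassium channel partner, with 35.5, 57.2, 52.5, 42 and 27.3 CPM in hippocampus and 35.3, 29.8, 46.4, 41.7 and 44.2 CPM in cortex (-1.28 ± 0.22, adjusted p = 0.0493).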

How the data were processed

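Libraries were made with a QuantSeq 3' mRNA kit from pooled RNA and read as single ends of 75 bases, per the labels' protocols. Per the submitters' processing notes, Bowtie2, bedtools, edgeR and the build mm10 were used; versions, annotation and strand setting are not given in the sources used here. The deposited values are raw counts per gene symbol (23282 lines, 23238 symbols), and 27 symbols turned into dates in each of 2 files were restored. Rn45s, a ribosomal RNA gene, took 7.75 to 12.88% of the counts in the 10 libraries.

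Counts were fitted with edgeR 4.0.16 (R 4.3.3; TMM, filterByExpr by tissue, quasi-likelihood F test, exposure and tissue as terms), with Benjamini-Hochberg adjustment over all genes tested and a threshold of 0.05; DESeq2 1.42.0 and limma 3.58.1 were alternatives, as were scalings, filters and left-out libraries. The SE is the fold change divided by the root of F. The code was tested on simulated data. Exposure as a block is part of the design; deviations of same-exposure libraries correlated between -0.16 and 0.17, so the data do not show that they pair. Named genes were the 12 largest in each direction among called genes with a mean of at least 5 CPM, the 3 called members with the smallest p per list and direction, the 5 with the smallest p in other fits, and list members needed for completeness; of the other fits, uncalled ones are not all named. Some genes that the rule names are not reported here. Members and lists were chosen with earlier results of these data known. Positions are those of GENCODE M21 on mm10.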

Additional observations from a re-analysis of the deposited data

Results flagged for a closer look

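Among 400 groups of 5 libraries (each reported gene in each tissue), 43 held 1 library far from the other 4 by Dixon's criterion. Chance gives about 1 in 20 for groups picked without regard to their values. Many of these genes were named by their values in the same libraries, so that rate is no measure for the 43 groups. The hippocampus library of 16 weeks accounted for 15 of them and the control cortex for 8. In hippocampus at 8 weeks the highest value stood apart for Aqp4 at 124 CPM, Prkcd at 44.3 CPM and Syt6 at 7.67 CPM. In hippocampus at 12 weeks the highest value stood apart for Htr2a at 1.57 CPM. In hippocampus at 12 weeks the lowest value stood apart for Cldn5 at 12.2 CPM. In hippocampus at 16 weeks the highest value stood apart for Ahsg at 45.2 CPM, Alb at 328 CPM, Apoa1 at 89.6 CPM, C3 at 22.2 CPM, Crhr1 at 7.41 CPM, Efna5 at 57 CPM, Egr1 at 359 CPM, Exph5 at 32.8 CPM, Kcnh1 at 94.2 CPM, Ovol2 at 6.9 CPM, Pou3f2 at 42.2 CPM, Rgs4 at 384 CPM, Rorb at 158 CPM, Rspo1 at 10.3 CPM and Serpina1e at 80.6 CPM. In hippocampus at 20 weeks the highest value stood apart for Calb1 at 146 CPM and Htr2c at 61 CPM. In the control cortex the highest value stood apart for Aqp1 at 4.57 CPM, Egr1 at 525 CPM, Enpp2 at 549.8 CPM, Etv1 at 66.5 CPM, F5 at 10.2 CPM, Otx2 at 5.78 CPM, Tshz3 at 75.4 CPM and Ttr at 1159.6 CPM. In cortex at 8 weeks the highest value stood apart for Drd2 at 0.44 CPM (3 counts), Prkcd at 26.1 CPM and Serpina1e at 7.48 CPM. In cortex at 8 weeks the lowest value stood apart for Stmn1 at 498 CPM and Vip at 17.5 CPM. In cortex at 12 weeks the highest value stood apart for Htr2a at 4.01 CPM and Srxn1 at 118 CPM. In cortex at 12 weeks the lowest value stood apart for Cspg4 at 8.9 CPM. In cortex at 16 weeks the highest value stood apart for Rspo1 at 22.6 CPM. In cortex at 20 weeks the highest value stood apart for Wfs1 at 34 CPM. In cortex at 20 weeks the lowest value stood apart for Camk2b at 533 CPM, Npy at 153 CPM and Sema3a at 35.4 CPM.

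The tissue difference itself differed between the exposed pairs and the control pair, on the log2 scale and by edgeR's test of that difference, for Enpp2 by 3.73, Otx2 by 7.08, Aqp1 by 8.55, Clic6 by 6.87, F5 by 6.46 and Ttr by 11.13. All rest on the 1 control pair, whose spread was taken from the exposed pairs. Its slope per 10 weeks, from 8 to 20 weeks, passed the test for Serpina1e by 10.37, Ahsg by 8.40, Apoa1 by 6.57, Alb by 6.77, Serpina3k by 7.59, Kcnip1 by -1.28, Arpp19 by 1.13, Camk4 by 1.10, Kcnj4 by 0.95, Npy by 0.99, Rasd2 by 1.27 and Slc30a3 by 1.11. The hippocampus library of 16 weeks was the highest of the 10 in the first 5 of these. What sets these libraries apart was not tested.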

How the results depend on the processing

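The tissue difference at control and 8 to 20 weeks, 2797 genes, was 2343 by DESeq2, 2875 by limma-voom, 2798 with RLE size factors, 2900.0 with total counts alone, 3094 with no filter and 2316 with a mean of 50 counts. It was 372 for a fold above 1.5. Without exposure as a replicate block 2868 genes were called; of the reported genes 6 then lost their call (Chrdl1, Ctss, Prkcd, S100a10, Trhr and Ttr), 3 gained one and 190 kept their side. Leaving out 1 exposure in turn gave 1777 to 2822 genes, and leaving out 1 library without the block gave 2292 to 2900.0. At 3 days to 3 weeks, 636 genes, leaving out 1 exposure gave 305 to 524. The difference between the sets, 0 genes by edgeR and limma-voom, was 68 by DESeq2. The cause of these shifts was not tested, beyond the fewer libraries in fits that leave some out. Of 199 reported genes, 107 kept sign and side of the threshold in every one of the 25 alternatives that tested them, and none changed sign while called. Depth limits low genes: 3 counts equal 0.349 to 0.44 TMM-scaled CPM, and intervals over counts cover counting error only.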
